A study of Mus musculus with 4 samples.

Results

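The genes described here encode the proteins of the cytosolic ribosome. They were chosen by name alone: every gene whose platform annotation symbol is Rpl or Rps with a number and an optional a, x, y, l or digit ending, or Rplp0, Rplp1, Rplp2 or Rpsa, with the Rps6k kinases left out. That rule found 56 genes with 83 probes, of 17711 genes named by a single symbol and 46632 probes in all. There were 18 genes of the small (40S) subunit and 38 of the large (60S) subunit, counted by symbol.

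The tumours came from B16-F10-luc-G5, a mouse melanoma line that expresses luciferase, injected under the skin and collected on day 10. The hosts were wild-type mice (n = 2) or mice without VAP-1 (VAP-1 -/-, n = 2). VAP-1, vascular adhesion protein 1, is the amine oxidase encoded by Aoc3. The deletion was in the host mice, and both groups received the one cell line. The sources used here give no strain, age or sex of the mice. One Illumina bead array was hybridised per tumour, giving wild-type replicates 2 and 3 and knockout replicates 1 and 2, and their number limits the precision of every value. The tumours are bulk tissue, so fewer cells of a type and less RNA per cell cannot be told apart.

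In the cell the 40S subunit reads the mRNA and the 60S subunit joins the amino acids. Each ribosome holds 1 copy of nearly every one of these proteins, the stalk proteins P1 and P2 being the exception, and surplus proteins are degraded. Most of their mRNAs begin with a terminal oligopyrimidine (TOP) tract, a run of C and T at the first base, through which mTOR signalling and the RNA-binding protein Larp1 govern their translation. The comparison asks how the mRNAs of this machinery differed between tumours of knockout and wild-type hosts.

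The TOP tract is the sequence feature these genes are best known for, so 30 bases around the annotated start, 15 on each side, are shown for genes whose results are described further on. The sequences are RefSeq's on GRCm38.p6, 5′ to 3′ on the gene's strand, and capitals mark a run of at least 6 pyrimidines that reaches within 5 bases of the start. The first 3 genes were lower in the knockout and have such a run, the next 2 were higher and have one, and the last 3, of which Rps13 was higher and the others lower, have none.
Rpl38, chr11:114668565-114668594, plus strand: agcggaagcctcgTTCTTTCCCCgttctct
Rps27, chr3:90213634-90213663, minus strand: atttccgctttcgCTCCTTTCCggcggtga
Rpl35a, the middle one of 3 annotated starts, chr16:33056467-33056496, plus strand: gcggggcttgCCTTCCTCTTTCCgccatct
Rps24, the first of 2 annotated starts, chr14:24490663-24490692, plus strand: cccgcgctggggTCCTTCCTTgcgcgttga
Rps15a, chr7:118116133-118116162, minus strand: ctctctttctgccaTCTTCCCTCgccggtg
Rplp0, chr5:115559452-115559481, plus strand: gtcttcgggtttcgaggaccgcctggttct
Rps3a1, chr3:86142654-86142683, minus strand: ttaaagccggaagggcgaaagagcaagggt
Rps13, chr7:116334176-116334205, minus strand: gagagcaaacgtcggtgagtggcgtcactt

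The promoter table held 45 of the 56 genes, with 56 annotated starts. A pyrimidine run of this kind was present at 21 of these starts (37.5%), against 20.2% of all 32851 starts in the table. On the opposite strand it was present at 5 (8.93%), against 21.8%. The letters CCGGAAG, which ETS family factors bind, were found on either strand in 17 of the 300-base windows (30.4%, against 8.86% of all windows). AAGATGG, found within sites of the factor YY1, was in 9 (16.1% against 6.34%), and TATAAA in 6 (10.7% against 13.6%). No window of these genes held both CCGGAAG and AAGATGG. Annotated starts were used and no start was measured here, so a gene without a run in this window may still begin with one in these tumours.

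Most of these genes gave bright signals. On the log2 scale used here, normalized signals ran from 5.65 to 14.72, and probes with a mean above 6.07 were kept. Of the 56 genes, 54 had a kept probe and 75 of the 83 probes were kept. The probes of Rpl17 (5.85 and 5.89 in wild type, 5.96 and 5.77 in the knockout) and Rpl39l (means of 6.01 and 6.07) lay below the filter level. The brightest probe was above the 90th percentile of all probes for 42 genes. Some genes that every cell needs had only probes near the floor, among them Rplp2, Rpl4 and Rpsa, and for these the differences are compressed. RefSeq names at least 1 pseudogene after 39 of the 56 genes, 172 in all. The probe sequences are not used here, so signal of a gene and of its copies cannot be told apart.

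Median unnormalized signal was 55.3 and 63.3 on the wild-type arrays and 64.8 and 68.3 on the knockout arrays. Of 10 melanocyte and melanoma markers 9 were on the array, all above the filter level. The log2 of their summed linear signal was 16.72 to 16.78 in wild type and 16.88 to 16.99 in the knockout. Sums for the other cell types are given in the same way, and the brightest markers weigh most in them. Knockout replicate 1 carried more signal of skin and muscle. The 9 keratinocyte markers summed to 12.49 and 12.73 in wild type, 14.12 in knockout replicate 1 and 12.86 in knockout replicate 2. Summed signal of blood cell markers was lower in both knockout tumours. The 8 granulocyte markers, 6 of them above the filter level, summed to 11.18 and 11.76 in wild type against 9.46 and 9.74. That sum is mostly S100a8 and S100a9, which differed by -3.27 and -2.38 (knockout minus wild type, log2). Camp (-0.56) and Mmp9 (-0.73) were lower too, while Csf3r (0.05), Cxcr2 (-0.07), Ngp (-0.02) and Ltf (-0.08) hardly differed. The 6 erythroid markers on the array summed to 16.10 and 16.01 against 15.08 and 14.28. The 4 macrophage markers on the array summed to 9.92 and 9.78 against 9.39 and 9.61. The 6 endothelial markers summed to 11.34 and 10.73 against 11.62 and 11.65, higher in the knockout. Only 2 of these 6 had a higher mean there, so the sum and most of its markers went opposite ways. The part of these cells in the results that follow was not tested.

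In the group means ribosomal protein mRNAs were on balance slightly lower in the knockout tumours, with large differences in both directions for single genes. The shift was not seen between every pair of arrays. The median over the genes was 0.01 for knockout replicate 2 minus wild-type replicate 2. For the other pairs of a knockout and a wild-type array it ran from -0.25 to -0.14. For wild-type replicate 3 minus wild-type replicate 2 it was 0.13, close in size to the group shift. Over the 54 measured genes, each by its brightest probe, the median difference (knockout minus wild type, log2) was -0.15, against -0.03 over all 13231 genes measured in that way. Signal was lower in the knockout for 38 genes and higher for 16, so 70.4% were lower, against 54.1% of all genes. With limma, Benjamini-Hochberg adjustment over 27979 probes and a threshold of 0.05, 0 of the 54 passed, and 0% of all probes did. The smallest adjusted p among the genes was 0.116. At an unadjusted p under 0.05, 12 genes were lower (22.2%) where 10.0% of all genes were, and 4 were higher (7.41%) where 10.5% were. Differences of at least 1.5-fold were found for 8 lower genes (5.64% of all genes were lower by as much) and 4 higher ones (6.97%). Over the 75 kept probes, 16 were lower and 5 higher at that p, where 7.12% and 9.26% of all kept probes were. At least 1.5-fold lower were 13 probes and higher 5, where 4.56% and 5.49% of all kept probes were. All 12 and all 4 kept their direction under every one of the 14 other settings in which they were measured, while 15 of the other 38 did. The groups of all 12 and all 4 did not overlap, so leaving out 1 array could not turn their sign. The remaining settings reuse the same 4 arrays, so the kept directions are no independent support.

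The count of lower genes depended on single arrays and on scaling. Without knockout replicate 1 it was 3, where 2.11% of all probes were lower at that p, and without wild-type replicate 2 it was 18, where 12.6% were. With each array scaled to a common median it was 0. Under median scaling 0.368% of all probes were lower at that p, and the median over the ribosomal genes was -0.17 against 0.08 over all probes. With scaling to the 75th percentile the medians were -0.40 and -0.14. These scalings only shift each array by a constant, so relative to all probes they give the same value by construction. That value was -0.25, and the setting reported here gave -0.13. Past the adjusted threshold there were 6 genes without wild-type replicate 2, where 1700 of 27979 probes passed. There were 2 without wild-type replicate 3, where 877 probes passed, and 2 when only probes above the 90th percentile were tested, where 190 of 4664 passed.

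**Figure D1:**
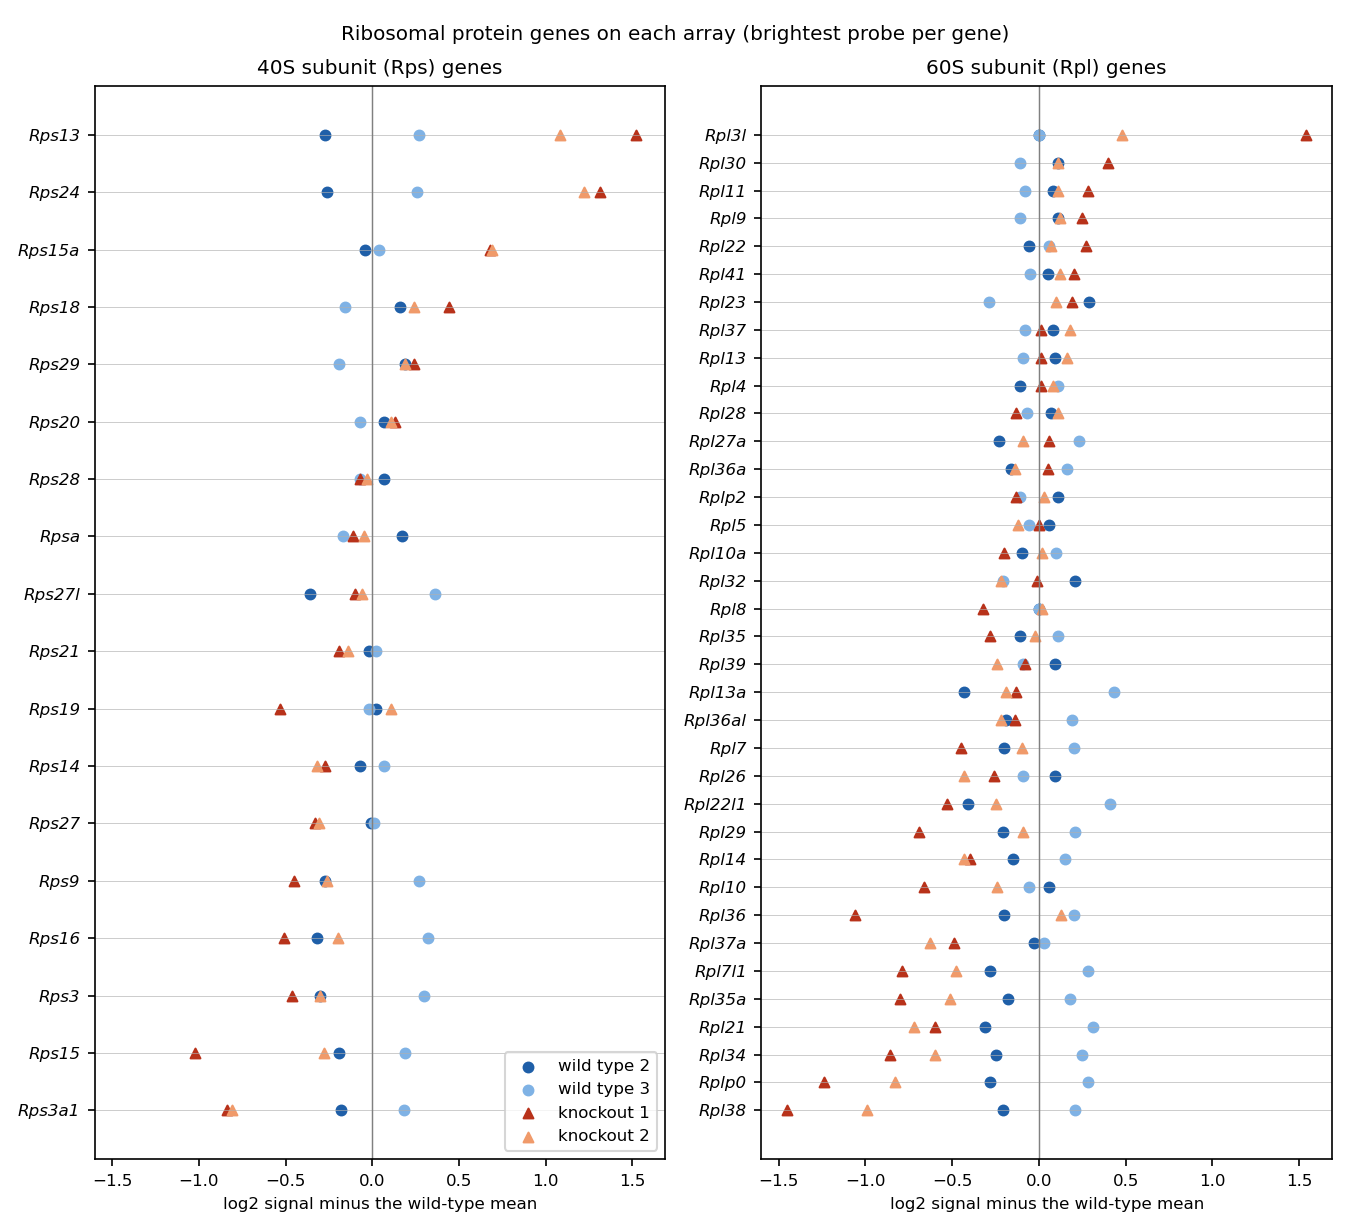
Log2 signal of the 54 measured genes on each array, minus the mean of the wild-type arrays, in 1 row per gene (brightest probe), 40S genes on the left and 60S genes on the right. Circles are wild-type and triangles knockout arrays. Rps13, Rps24 and Rps15a at the top and Rpl38, Rplp0 and Rps3a1 at the bottom have both knockout arrays outside the wild-type pair.

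The arrays did not contribute equally. Wild-type replicate 3 was the highest of the 4 arrays for 28 of the 54 genes, where it was highest for 32.1% of all kept probes, and knockout replicate 1 was the lowest for 24, against 27.7%. The median size of the difference between the wild-type arrays was 0.30 over these genes, and that of the difference between the groups was 0.23. Over all kept probes the same values were 0.17 and 0.15. The knockout arrays differed from each other by a median size of 0.17. The difference between the groups is taken between means, and the differences within the groups between single arrays. Means vary less than single arrays, so these sizes do not show whether a typical ribosomal gene differed beyond the spread between tumours. The groups did not overlap for 15 lower genes (27.8%, against 27.7% of all genes) and 10 higher ones (18.5% against 23.4%), which is near the share of all genes.

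Among the 60S genes 26 of 36 measured were lower and 9 of them reached an unadjusted p under 0.05. The median was -0.15. Rpl38, which encodes a 60S protein that in mouse embryos is needed for the translation of a set of Hox mRNAs, had the lowest value. Its log2 signal was 10.70 and 11.11 on the wild-type arrays and 9.45 and 9.91 on the knockout arrays. Both knockout values lay below both wild-type values. The difference was -1.22 ± 0.23 (SE, n = 2 each, 95% interval -1.83 to -0.62), a 2.33-fold lower signal, with limma adjusted p = 0.137. It ran from -1.45 to -0.82 over the other settings. Its second probe, near the floor, differed by -0.41 ± 0.20.

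Rplp0 encodes P0, the base of the stalk that recruits elongation factors, and its mRNA is a common reference in quantitative PCR. Its signal was 8.60 and 9.15 in wild type and 7.63 and 8.04 in the knockout, so the groups did not overlap. The difference was -1.04 ± 0.25 (95% interval -1.70 to -0.38), with limma adjusted p = 0.173, and -0.63 under median scaling. Of the other stalk proteins, Rplp2 (P2) lay near the floor at 6.30 and 6.07 against 6.05 and 6.22 and differed by -0.05 ± 0.13. The second Rplp0 probe was below the filter level.

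Further 60S genes were lower at an unadjusted p under 0.05. Rpl37a had 12.77 and 12.83 in wild type against 12.31 and 12.17, a difference of -0.56 ± 0.11, and its replicates were close in both groups. Rpl35a had 11.93 and 12.28 against 11.30 and 11.59 (-0.66 ± 0.18). Rpl34 had 13.25 and 13.75 against 12.64 and 12.90 (-0.73 ± 0.21). In each of these the knockout arrays were below the wild-type arrays. Without wild-type replicate 3, Rpl34 differed by -0.48. Their limma adjusted p was 0.139, 0.201 and 0.217. Rpl35a is one of the genes whose loss of function causes Diamond-Blackfan anaemia in humans. Rpl21 (-0.66 ± 0.23), with all 3 kept probes lower, and Rpl14 (-0.42 ± 0.14), near the floor, were lower as well. Under median scaling they differed by -0.26 and -0.27, and without wild-type replicate 3 by -0.35 and -0.27. Rpl26 encodes a protein that binds Trp53 mRNA in human cells, and it had 12.68 and 12.50 against 12.33 and 12.16 (-0.34 ± 0.13). Rpl10, whose protein joins the 60S subunit late in its assembly, had 12.77 and 12.65 against 12.05 and 12.46. It differed by -0.45 ± 0.17, with an unadjusted p of 0.0524 and limma adjusted p = 0.312, and by -0.24 without knockout replicate 1.

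Rpl5 and Rpl11 encode the proteins that, together with 5S rRNA, bind and inhibit Mdm2 when ribosome assembly fails. Rpl5 had 12.62 and 12.50 against 12.56 and 12.44, a difference of -0.06 ± 0.11 (95% interval -0.36 to 0.24), and its groups overlapped. Under 75th percentile scaling it was -0.35, and a second bright probe, with 11.49 and 11.50 against 11.40 and 11.19, was lower without overlap (-0.20 ± 0.12). Rpl11 had 13.88 and 13.73 against 14.08 and 13.92, a difference of 0.20 ± 0.12 (95% interval -0.13 to 0.52). It was 0.11 without knockout replicate 1 and -0.08 under 75th percentile scaling. Rpl23, another Mdm2-binding protein, had 14.17 and 13.59 in wild type and 14.07 and 13.98 in the knockout (0.14 ± 0.22), so the knockout lay between the wild-type arrays. It was negative without wild-type replicate 3 (-0.15) and with 75th percentile scaling (-0.16).

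Several of the brightest 60S probes hardly differed. Rpl41 (0.16 ± 0.11), Rpl9 (0.18 ± 0.13), Rpl37 (0.10 ± 0.12) and Rpl13 (0.08 ± 0.12) had slightly higher means in the knockout. Under 75th percentile scaling Rpl41 was 0.02, Rpl9 -0.24, Rpl37 -0.11 and Rpl13 -0.06, so the direction of the last 3 was not settled. Rpl9 was -0.01 under median scaling. Rpl13a, whose protein also takes part in silencing of inflammatory mRNAs in myeloid cells, had 11.73 and 12.59 in wild type against 12.03 and 11.97. Its wild-type arrays differed by more than the groups did (-0.16 ± 0.30), and it was 0.27 without wild-type replicate 3. Rpl4, which forms part of the exit tunnel, lay near the floor at 6.33 and 6.56 against 6.46 and 6.52 (0.04 ± 0.12).

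**Figure D2:**
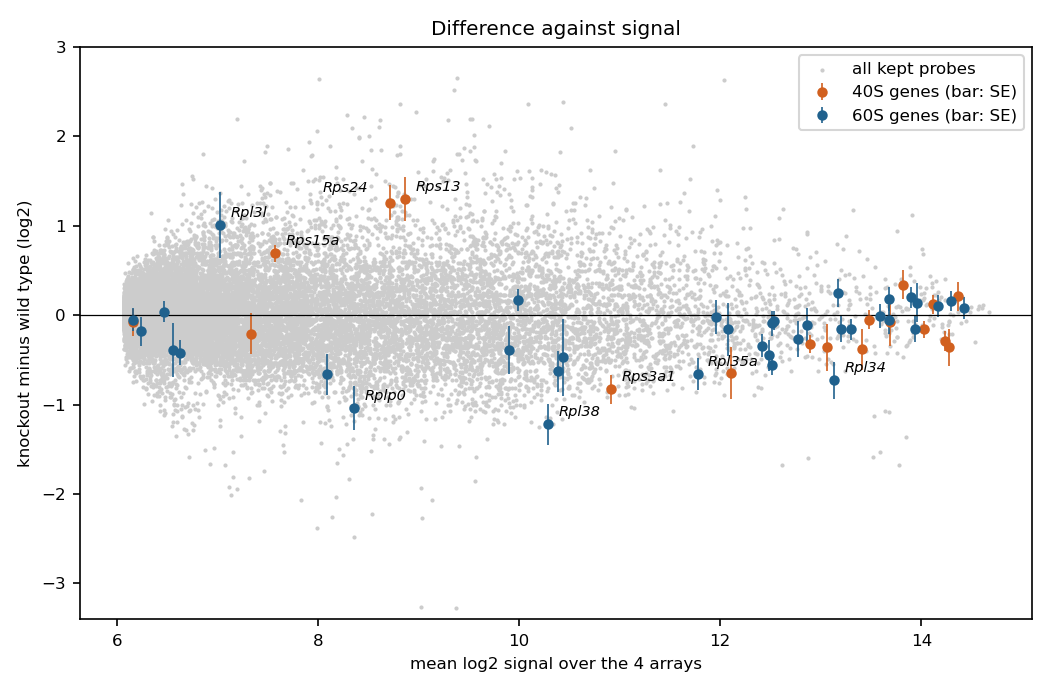
Difference between knockout and wild type (log2, limma fit) against the mean log2 signal over the 4 arrays, for all 27979 kept probes in grey and the 54 ribosomal genes in colour, with bars of 1 SE. Between signals of 9 and 13 nearly all ribosomal genes lie below 0, and the brightest lie close to 0.

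The lower genes gathered in the middle of the signal range, a split made after the values were seen. Of 18 genes with a mean signal from 9 to 13, 17 were lower, with a median of -0.37, and 17 were lower under both other scalings as well. Without knockout replicate 1 the median was -0.23 with 15 lower, and 14 were lower without wild-type replicate 3. In all kept probes of that range 52.4% were lower. Of 23 genes at 13 and above, 13 were lower with a median of -0.05, against 48.6% of all kept probes there. Of the 13 genes below 9, 8 were lower (61.5%, near the 54.1% of all kept probes there). All 4 genes that were higher at an unadjusted p under 0.05 were among the 13 (30.8%, against 7.98% of all kept probes there). Signals at the top of the scale are close to the highest normalized value of 14.72, where differences may be compressed.

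Of 18 measured 40S genes 12 were lower (66.7%, against 54.1% of all genes) and 6 higher, with a median of -0.12. At an unadjusted p under 0.05, 3 were lower and 3 higher (16.7% each, against 10.0% and 10.5% of all genes). The differences were spread more widely than among the 60S genes (SD over genes 0.58 against 0.41), and no test of that was run. Rps3a1, whose protein sits at the platform of the 40S subunit, was the lowest. Its signal was 11.15 and 11.52 in wild type and 10.49 and 10.52 in the knockout. The knockout arrays were nearly equal and both lay below wild type, with a difference of -0.83 ± 0.16 (95% interval -1.25 to -0.41) and limma adjusted p = 0.137. Rps27 had 13.04 and 13.06 against 12.72 and 12.74, a small difference of -0.32 ± 0.10 with little spread in either group. Rps14, which human 5q- syndrome deletes on 1 chromosome copy, had 14.32 and 14.45 against 14.12 and 14.06 (-0.29 ± 0.11, limma adjusted p = 0.299).

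Rps3, a protein of the mRNA entry channel that also has a role in DNA repair, had 13.30 and 13.90 in wild type and 13.14 and 13.30 in the knockout. Its difference of -0.38 ± 0.23 was smaller than the gap of 0.61 between the wild-type arrays. Without wild-type replicate 3 it was -0.08. Rps15 had 12.24 and 12.62 against 11.42 and 12.16, and Rps16 had 12.92 and 13.56 against 12.73 and 13.04. Knockout replicate 1 was the lowest array for all 3 genes. Rps15 differed by -0.65 ± 0.29, and by -0.28 without that array. Rps16 differed by -0.36 ± 0.26, and by -0.03 without wild-type replicate 3. Rps18 (0.34 ± 0.16) and Rps20 (0.12 ± 0.11) were higher without overlap of the groups. Under 75th percentile scaling they were 0.03 and -0.09, and without wild-type replicate 3 they were 0.18 and 0.05. Rpsa, also known as the laminin receptor precursor, lay near the floor with 6.37 and 6.03 against 6.09 and 6.15.

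Of the 6 higher genes of the 40S subunit, 3 reached an unadjusted p under 0.05. Rps13, whose protein binds near the bridge between the subunits, had 7.95 and 8.48 in wild type and 9.74 and 9.29 in the knockout. The groups were well apart, with a 2.46-fold higher signal in the knockout (1.30 ± 0.25, 95% interval 0.63 to 1.97, limma adjusted p = 0.139). Rps15a had 7.19 and 7.27 against 7.91 and 7.92, a difference of 0.69 ± 0.10 with the smallest p of all the genes (limma adjusted p = 0.116). Rps24, one of the genes altered in human Diamond-Blackfan anaemia, had 7.82 and 8.35 against 9.39 and 9.30 (1.26 ± 0.20, limma adjusted p = 0.125). Under median scaling these 3 were higher by 1.68, 1.07 and 1.65. All 3 probes had mean signals below 9, dimmer than those of most of the other ribosomal genes. Rps13, Rps15a and Rps24 have 5, 8 and 2 named pseudogenes. Lower genes have such copies as well, among them Rpl21 (15), Rpl26 (6) and Rpl35a (6), while Rps3a1 has 0. The part of such copies in these signals was not tested.

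Rps24 had probes that disagreed. Its mRNA is known to be spliced in alternative forms at the 3′ end. A second probe, almost as bright, had 8.38 and 9.52 in wild type and 7.96 and 8.19 in the knockout. Both of its knockout values lay below both wild-type values. The difference (-0.88 ± 0.40) was smaller in size than the gap of 1.14 between its wild-type arrays. The brightest probe separated the groups the other way, with both knockout values above both wild-type values. The dimmest probe, near the floor, differed by -0.04 ± 0.10, and the mean over the 3 probes by 0.12. The transcript form that each probe reads was not determined.

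Rps19 was the other gene with large disagreement. It is the gene most often altered in human Diamond-Blackfan anaemia. Its brightest probe had 7.45 and 7.42 in wild type against 6.91 and 7.55, so the knockout arrays lay on both sides of wild type (-0.21 ± 0.23). The second had 6.03 and 6.18 against 7.09 and 6.78, higher on both knockout arrays (0.83 ± 0.15, limma adjusted p = 0.136). The direction of the brightest probe turned to 0.16 under median scaling and to 0.11 without knockout replicate 1, and the mean of both probes was 0.31. RefSeq names 13 pseudogenes after Rps19.

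**Figure D3:**
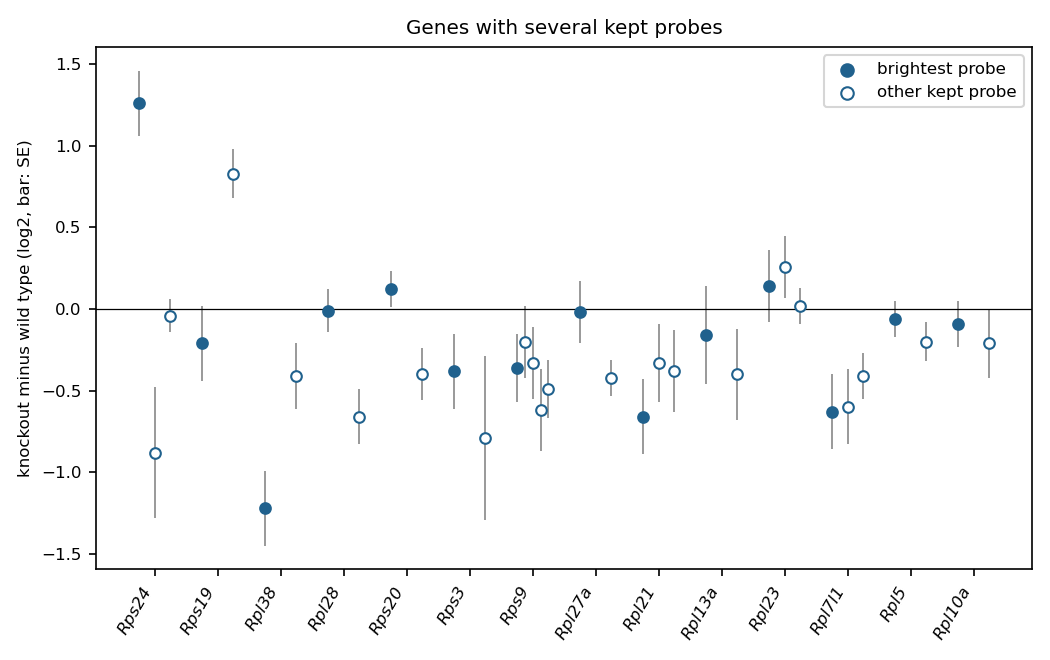
Difference between knockout and wild type (log2, with bars of 1 SE) for each kept probe of the 14 genes with several kept probes, ordered by the spread between probes. Filled points are the brightest probe of a gene. Rps24 has probes at 1.26 and -0.88, and all 5 Rps9 probes lie between -0.62 and -0.20.

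In all, 14 genes had several kept probes, 35 together, and for 11 of them every kept probe went the same way. For none did probes pass an unadjusted p of 0.05 in opposite directions. All 5 probes of Rps9, another gene of the 40S subunit, were lower, by 0.20 to 0.62 in size, and wild-type replicate 3 was the highest array for each of them. Without it the brightest probe differed by -0.09 in place of -0.36. Rpl28 differed by -0.01 ± 0.13 at a bright probe and by -0.66 ± 0.17 at a dim one. Rps20 had a second bright probe at -0.40 ± 0.16 beside the one at 0.12.

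Some ribosomal proteins have a paralog that replaces them in certain tissues or conditions. Rpl3l encodes the form that takes the place of Rpl3 in heart and skeletal muscle. Its signal was 6.52 and 6.51 in wild type, and it lay above the wild-type mean by 1.54 in knockout replicate 1 and by 0.48 in knockout replicate 2. The difference of 1.01 ± 0.37 came mostly from knockout replicate 1 and was 0.48 without it. Skeletal muscle markers were brightest on the same array. Of 10 listed 9 were on the array and 6 were higher in the knockout. The log2 of the summed linear signal of the 9 was 11.98 and 11.87 in wild type, 13.19 in knockout replicate 1 and 12.28 in knockout replicate 2. The calcium pump gene Atp2a1 had 8.60 and 8.29 against 10.62 and 9.37, while the myosin genes Myh1, Myh2 and Myh4 lay near the floor on all arrays. The part of muscle RNA in the Rpl3l signal was not tested.

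For the other paralogs the values are set beside those of their partners, and no test between them was run. Rpl7l1 encodes a protein related to Rpl7 that acts in ribosome assembly, and its 3 probes were all lower, the brightest with 10.43 and 10.99 against 9.91 and 10.23 (-0.63 ± 0.23). It was -0.35 without wild-type replicate 3. Rpl7 itself differed by -0.27 ± 0.20, by -0.10 without knockout replicate 1 and by -0.07 without wild-type replicate 3. Rpl22, with 9.84 and 9.96 against 10.17 and 9.97, had a slightly higher mean (0.17 ± 0.12, and 0.07 without knockout replicate 1), and Rpl22l1, whose mRNA the Rpl22 protein represses in mouse, slightly lower (-0.39 ± 0.30). The Rpl22l1 difference was 0.02 without wild-type replicate 3. Rps27l, a p53 target, had 13.37 and 14.08 against 13.63 and 13.67 (-0.08 ± 0.26), so both knockout values lay between the wild-type ones. Rpl36a and Rpl36al differed by -0.05 ± 0.16 and -0.18 ± 0.16, and Rpl39 by -0.16 ± 0.12.

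The genes were also split by the pyrimidine run, which stands for a TOP tract only as far as the annotated start is the one used. Of 19 measured genes with a pyrimidine run at an annotated start, 5 were lower and 2 higher at an unadjusted p under 0.05, with a median of -0.15. Of 25 without one, 5 were lower and 2 higher, with a median of -0.08. Over all genes 10.0% were lower and 10.5% higher at that p, with a median of -0.03. Rpl38 and Rps24, which have a run in the windows printed at the start, went opposite ways, and so did Rplp0 and Rps13, which have none.

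Other genes of translation were set beside them. Of 22 listed genes with TOP mRNAs outside the Rpl and Rps names, 18 were on the array and 17 were measured. Of these 14 were lower (82.4%, against 54.1% of all genes) and 5 of them reached an unadjusted p under 0.05 (29.4%, against 10.0%). That count was 1 under median scaling, where 0.368% of all probes were lower at that p. Under 75th percentile scaling it was 4, where 9.20% were. The median was -0.35, with -0.20 and -0.42 under the median and 75th percentile scalings. With single arrays left out it ran from -0.37 to -0.25. Btf3, part of the nascent chain complex, had 12.80 and 12.76 against 11.68 and 12.10 (-0.89 ± 0.17), and the initiation factor gene Eif3k had 9.98 and 10.15 against 9.02 and 9.31 (-0.90 ± 0.15). Fau, which encodes a ubiquitin-like protein fused to a 40S protein, had 13.27 and 13.82 against 12.72 and 13.14 (-0.62 ± 0.25). The elongation factor genes Eef1a1 (0.03 ± 0.10) and Eef2 (0.00 ± 0.18) had differences near 0, which were -0.08 and -0.26 under 75th percentile scaling.

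Of 71 measured genes of the mitochondrial ribosome, 65 were lower (91.5%, against 54.1% of all genes), with a median of -0.35. At an unadjusted p under 0.05, 32 were lower (45.1%, against 10.0% of all genes) and 0 higher (against 10.5%). Under median scaling 47 were lower and 0 reached that p, where 0.368% of all probes were lower at that p. Under 75th percentile scaling 63 were lower. At that p 6 were, where 9.20% of all probes were, so that count was near the share of all probes. The median was -0.18 under median scaling, against 0.08 over all probes. It was -0.40 under 75th percentile scaling, against -0.14. With single arrays left out the median ran from -0.61 without wild-type replicate 2 to -0.25 without wild-type replicate 3, where 52 genes were lower. Mrpl20 had 10.73 and 11.05 against 9.68 and 9.80 (-1.15 ± 0.15, limma adjusted p = 0.109). Both kinds of ribosome are built from different protein genes, and the difference between the lists was not tested.

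Genes that control ribosome production went both ways. Of 23 listed, 18 were measured, with a median of 0.14. At an unadjusted p under 0.05, 5 were higher (27.8%, against 10.5% of all genes) and 4 lower (22.2%, against 10.0%). Neither the sign nor the counts were stable: the median was -0.01 without wild-type replicate 3 and -0.04 and -0.17 with filters at the 70th and 90th percentiles. Under median scaling 7 were higher and 0 lower, under 75th percentile scaling 5 and 0, and without knockout replicate 1 there was 1 in each direction. Mlst8, a subunit of the mTOR complexes, had 9.02 and 9.01 in wild type against 9.82 and 9.59 (0.69 ± 0.13). Mdm2, the p53 inhibitor that Rpl5 and Rpl11 bind, had 10.94 and 11.27 against 11.81 and 11.56 (0.58 ± 0.17). Both were higher under the other scalings too. Lower were Maf1, a repressor of RNA polymerase III (-0.53 ± 0.15), Rrn3, an initiation factor of RNA polymerase I (-0.52 ± 0.17), and Polr1b, a subunit of that polymerase (-0.51 ± 0.17). Under median scaling Maf1 differed by -0.53, but Rrn3 by -0.12 and Polr1b by -0.16. The TOP mRNA regulator Larp1 differed by 0.06 ± 0.15, and by 0.35 under median scaling.

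**Figure D4:**
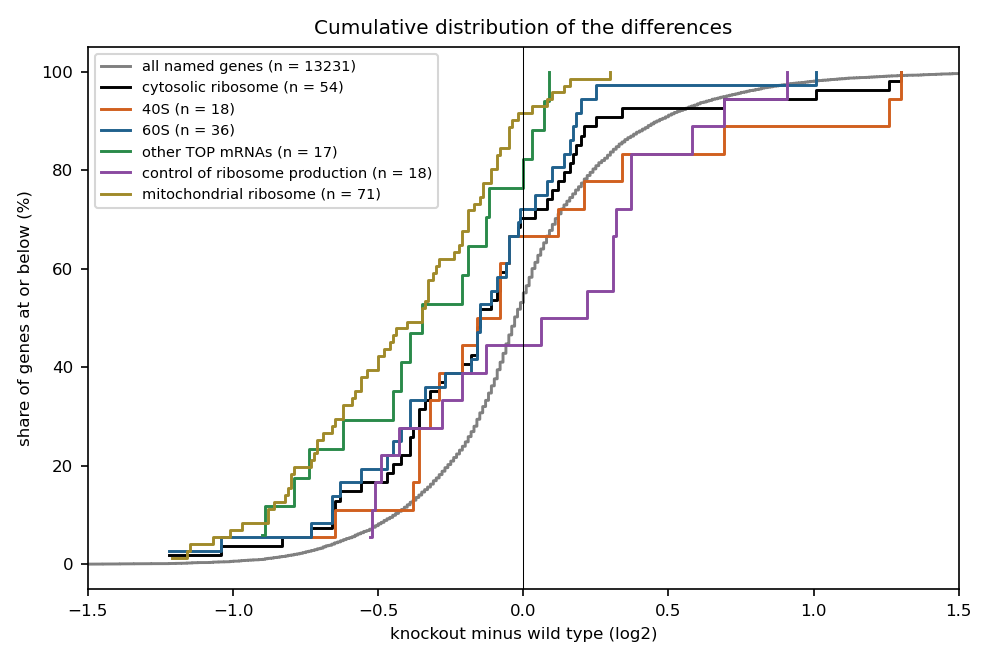
Cumulative share of genes (vertical axis, percent) at or below each difference between knockout and wild type (horizontal axis, log2), by brightest probe, for all named genes, the cytosolic ribosomal genes and their subunits, other TOP mRNAs, genes that control ribosome production and the mitochondrial ribosome. The median of the 54 cytosolic ribosomal genes (-0.15) lies between that of all genes (-0.03) and that of the mitochondrial ribosome (-0.35), and their curve reaches from -1.22 to 1.30.

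**Figure D5:**
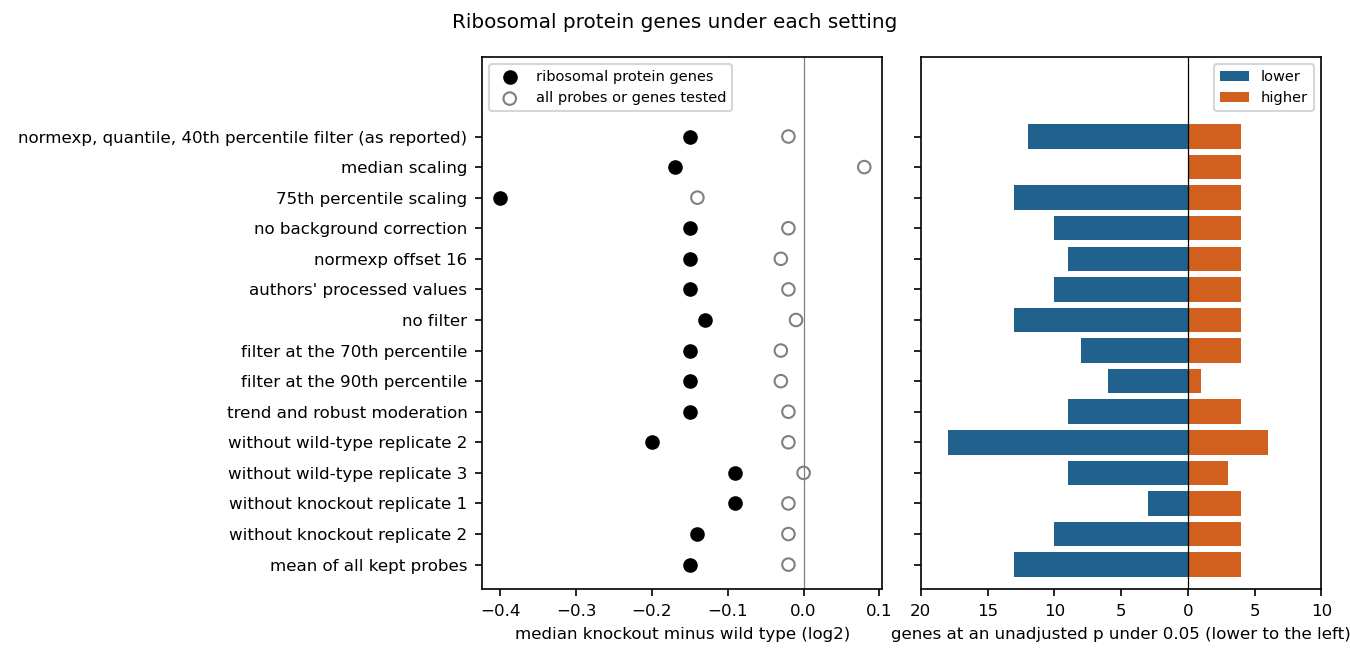
Left, the median difference (log2) of the ribosomal genes in black and of all probes or genes tested in open circles under each setting. Right, the number of ribosomal genes at an unadjusted p under 0.05, lower to the left and higher to the right. The median lies below that of all probes in each setting, and the count of lower genes runs from 0 under median scaling to 18 without wild-type replicate 2.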

How the data were processed

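The authors deposited linear probe intensity, before normalization and as processed values that match its quantile normalization. Per the labels' protocols, 100 ng of total RNA was amplified by in vitro transcription for 14 h (Illumina TotalPrep). The scanner software is not named there. Unnormalized rows carry no probe names, so the 46632 processed probes were paired with them by value within 0.001 on the log2 scale, and each found a single partner. Symbols came from the platform annotation.

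Intensities were background corrected with normexp (offset 50), quantile normalized and taken to log2, and probes with a mean above the 40th percentile were kept. Knockout and wild type (n = 2 each) were compared with limma 3.58.1 (lmFit, eBayes) in R 4.3.3, two-sided, over all 27979 kept probes. The steps were tested on simulated data. An exact permutation test of these arrays cannot go below 0.333 and was not run. The labels name separate mice and no slide or scan date. Pairing, sequence counts and figures used Python 3.11.15, numpy 2.4.6, scipy 1.17.1, pandas 2.3.3 and matplotlib 3.10.9.

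The members, lists and tests were chosen with earlier results of these data known. Genes named singly are up to 10 per direction of smallest p without overlap of the groups, members of special role, paralog pairs and the genes whose probes differ most. Further genes (Rps9, Rps15, Rps16, Rpl13 and Rpl37) were named after their values were seen. In the other lists, the genes named were picked after their values were seen. Alternatives were other scalings, backgrounds, filters, moderation and probe summaries, the authors' processed values, and each array left out in turn.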

Additional observations from a re-analysis of the deposited data

How the results depend on the processing

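With 2 arrays a group the limits are the spread between the wild-type tumours and the scaling. No paired analysis was possible because the labels name separate mice and give no pairs between the groups. Among the named genes, 482 of the recomputed differences kept direction and side of the threshold, 23 turned sign and 10 passed it. Under median scaling 0 ribosomal genes were lower at an unadjusted p under 0.05. Under 75th percentile scaling the medians were -0.40 over all measured ribosomal genes, -0.39 over the 40S and -0.41 over the 60S genes. With probes above the 90th percentile only, 42 genes were measured, 2 passed the adjusted threshold, 1 was higher and 6 lower at an unadjusted p under 0.05 (13.7% and 14.0% of all probes tested there), and the 40S median was -0.23, through fewer genes tested. Leaving out single arrays gave 0 to 6 genes past the adjusted threshold, 3 to 6 higher and 3 to 18 lower genes, while 0 to 1700 of all probes passed the adjusted threshold and 2.11% to 12.6% were lower, and medians of -0.20 to -0.09 over all measured ribosomal genes. The 40S median ran from -0.18 to -0.06 and the 60S median from -0.22 to -0.10. The cause was not tested. Signs turned under median scaling for Rpl9 (-0.01) and Rps19 (0.16), under 75th percentile scaling for Rpl11 (-0.08), Rpl9 (-0.24), Rps20 (-0.09), Rpl4 (-0.08) and Rpl23 (-0.16), and with the mean of all kept probes for Rps20 (-0.14) and Rps19 (0.31). Leaving out single arrays turned Rplp2 (-0.16 to 0.06), Rpsa (-0.26 to 0.09), Rps19 (-0.53 to 0.11), Rpl4 (-0.07 to 0.16), Rpl13a (-0.59 to 0.27), Rpl23 (-0.15 to 0.43), Rpl22l1 (-0.80 to 0.02), Rpl36a (-0.20 to 0.11), Rpl36al (-0.37 to 0.00), Rps27l (-0.44 to 0.28) and Rpl28 (-0.13 to 0.11).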
